A study of Bos taurus with 16 samples.

Results

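The comparison of 4-cell (4C) with 8-cell (8C) bovine embryos covers 4 of the 16 samples in this series, with 2 single embryos at each of these stages and all loci of the deposited table. Of the 27393 loci listed, 14928 had at least 1 read in 1 or more of the 4 embryos and 9670 had enough reads over the whole series to be tested, of which 8366 carried a gene symbol. The embryos are those of Bos taurus that developed in vivo, without treatment or genetic change. Total RNA was taken from each embryo on its own and amplified over 2 rounds before SOLiD sequencing. Breed, dam, sire and hours after insemination are not given in the sources used here, and the replicate numbers only name the embryos. 8C embryo 2 stood nearer to the 4C embryos than 8C embryo 1 did, so counts are also given without each embryo.

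In cattle the embryo starts life on transcripts and proteins stored in the oocyte, because transcription from its own genome is low until the major wave of embryonic genome activation (EGA), which is placed around the 8-cell stage. Stored transcripts are held by RNA-binding proteins with short poly(A) tails, and are then deadenylated by the CCR4-NOT complex and destroyed, while new transcripts for ribosomes, energy metabolism and the first lineage regulators are made. The 4C to 8C step lies where these processes are known to meet in cattle.

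The values are normalised reads, which are read counts per locus divided by a size factor of the embryo, and they are not divided by gene length, so levels are compared between embryos and not between genes. They are relative to the other transcripts of the same embryo, so a change in total RNA and a change of single transcripts cannot be told apart. The 4C embryos gave 1440058 and 1627339 reads on 11321 and 11409 loci. The 8C embryos were read less deeply, with 808192 and 1039587 reads on 9372 and 10556 loci, so that 1 read is worth 1.80 normalised reads in 8C embryo 1 and 1.15 in 8C embryo 2, against 0.922 and 0.812 in the 4C embryos. A single unnamed locus took 20.4% of the reads of 4C embryo 1 and 7.44% of those of 4C embryo 2. The oocyte markers ZP2, ZP4, GDF9, H1FOO and NLRP5 were read in both 4C embryos, and BMP15 was listed at 0 in all 4 embryos.

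From 4C to 8C, 1711 loci rose (17.7% of those tested) and 1849 fell (19.1%) at an adjusted p under 0.05 by limma on log2(normalised reads + 1). The median log2 change was 3.21 among the loci that rose and -3.33 among those that fell, against -0.08 over all loci tested, and 2.90 and -2.97 with loci unread at a stage set at 3 reads per embryo. All loci that rose lay above both 4C embryos in both 8C embryos, and 1848 of the loci that fell lay below both 4C embryos in both 8C embryos. The calls were made on these same values, so this separation is no further support for them. No read was found in either 4C embryo for 348 of the loci that rose, and none in either 8C embryo for 358 of those that fell. In the same model, the step from 2C to 4C gave 0 loci higher and 0 lower, with 441 at an unadjusted p under 0.05, and edgeR on the recovered reads also gave 0 and 0. The step from 8C to 16C gave 53 higher and 30 lower, with 1673 at an unadjusted p under 0.05, and edgeR gave 0 and 0. These steps share the 4C or the 8C embryos with the comparison described here.

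edgeR on the recovered reads called 1656 loci higher and 1083 lower, so that 60.5% of its calls were rises against 48.1% by limma, and its median log2 change over all loci was shifted by 0.17. With only 2 embryos a stage, an exact permutation test of 1 gene could not go below p = 0.333, so all calls rest on the spread pooled over loci and stages. Without 4C embryo 1 or 2 the loci higher were 1064 and 1059 and the loci lower 978 and 934. Without 8C embryo 1 there were 1246 higher and 1133 lower, and without 8C embryo 2 there were 1755 and 1952.

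The largest rises were in genes with almost no reads at 4C. Where a stage had no read in either embryo, a change is given as a lower bound against 3 reads per embryo, and where a stage had 1 to 3 reads in all, as the ratio of reads with its exact 95% Clopper-Pearson interval, which covers counting error only. KLF17, a Krüppel-like zinc finger factor of early embryos, had 0.922 and 2.44 in the 4C embryos and 989 and 4271 in the 8C embryos (log2 change 9.64 ± 0.81 (SE), adjusted p = 4.5e-06). PRDM14, a repressor that guards the naive pluripotent state, had 7.38 and 1.62 in the 4C embryos and 1439.5 and 802 in the 8C embryos (log2 change 7.84 ± 0.99 (SE), adjusted p = 6.2e-05). In both of these regulators the groups were far from overlapping, KLF17 being higher in 8C embryo 2 and PRDM14 in 8C embryo 1. RNF168, a ubiquitin ligase that marks chromatin at DNA breaks, went from 0.922 and 1.62 to 681 and 348 (ratio 368, counting interval 126 to 1791, adjusted p = 0.0003). JRK, a DNA-binding protein derived from a transposase, went from 0 and 1.62 to 472 and 299 (ratio 424, counting interval 117 to 3513, adjusted p = 4.5e-06).

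Other large rises with a gene symbol follow. ELOVL6, which elongates saturated fatty acids, had 4.61 and 2.44 in the 4C embryos and 4093 and 434 in the 8C embryos (log2 change 8.25 ± 1.00 (SE), adjusted p = 4.5e-05), and stood in the 16C embryos at 4209.6 and 1203. SLC30A2, a zinc exporter of vesicles, rose from 0.922 and 0 to 1344 and 607 (ratio 2069, counting interval 371 to 81786, adjusted p = 4.5e-06). The membrane protein gene TMEM170A rose from 1.84 and 4.06 to 2881 and 1114 (log2 change 8.88 ± 0.72 (SE), adjusted p = 3.8e-06). For these 3 genes 8C embryo 1 was the higher of the 8C embryos. No read of WDR6, a WD-repeat protein linked to tRNA modification, was found at 4C, against 748 and 512 at 8C (at least 242-fold higher, adjusted p = 4.6e-07). RND3, an atypical small GTPase, was likewise unread at 4C and stood at 309.9 and 115 at 8C (at least 81.6-fold higher, adjusted p = 6e-06). SDF2, a protein of the endoplasmic reticulum, rose from 10.1 and 3.25 to 1340.4 and 1278 (log2 change 7.57 ± 0.70 (SE), adjusted p = 6.8e-06) with 8C values close to each other. CAMK2N2, an inhibitor of CaM kinase II, rose from 1.84 and 0 to 360.3 and 348 (ratio 408, counting interval 112 to 3379, adjusted p = 1.2e-05), and the ribosomal protein gene RPS19 rose from 2.77 and 0.812 to 357 and 1121 (log2 change 7.92 ± 1.06 (SE), adjusted p = 0.0001). Among loci without a symbol of their own, LOC516378 went from 6.46 and 2.44 to 6608 and 3385, LOC538435 from 12.9 and 5.69 to 4591 and 14001 and LOC100140788 from 2.77 and 5.69 to 1494 and 11307, with log2 changes of 9.87, 9.70 and 9.68.

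Among the largest falls with a gene symbol were CHL1, CYBRD1 and NRG3. CHL1, a neural cell adhesion molecule, had 1736 and 2368 in the 4C embryos and 3.60 and 3.44 in the 8C embryos (log2 change -8.81 ± 1.04 (SE), adjusted p = 3.6e-05). CYBRD1, a ferric reductase, had 3325 and 7469.8 in the 4C embryos and 0 and 184 in the 8C embryos (log2 change -8.52 ± 1.55 (SE), adjusted p = 0.00088). NRG3, a ligand of the ERBB4 receptor, had 1887 and 2279 in the 4C embryos and 0 and 31.0 in the 8C embryos (log2 change -8.52 ± 1.09 (SE), adjusted p = 7.1e-05). CHL1 was nearly gone from both 8C embryos, whereas CYBRD1 and NRG3 were unread in 8C embryo 1 and kept reads in 8C embryo 2. PEX5L, a relative of the peroxisomal import receptor, fell from 9333 and 10844 to 19.8 and 499, which left 0.196% of the 4C mean in 8C embryo 1 and 4.95% in 8C embryo 2 (log2 change -6.62 ± 0.98 (SE), adjusted p = 0.00021). DAZL, a germ-cell RNA-binding protein that controls translation of stored mRNAs, fell from 126 and 79.6 to 0 and 0 (at least 23.3-fold lower, adjusted p = 0.00013). MNS1 and TEX9, both known from testis, also had no read at 8C, from 95.0 and 101 for MNS1 and 256 and 275 for TEX9 at 4C. DCLRE1C, the Artemis nuclease of DNA end joining, fell from 301 and 347 to 0 and 1.15 (ratio 464, counting interval 83.0 to 18352, adjusted p = 7.4e-06). LRRC16A, which encodes an actin capping regulator, fell from 379 and 367 to 0 and 5.73 (log2 change -7.17 ± 1.12 (SE), adjusted p = 0.00033). KNG1 and ANKS1B were unread in both 8C embryos, from 115 and 175 for KNG1 and 92.2 and 118 for ANKS1B. GPAA1, a subunit of the enzyme that attaches GPI anchors, fell from 195 and 174 to 1.80 and 0 (ratio 262, counting interval 46.8 to 10368, adjusted p = 0.0012). The locus LOC536267, which RefSeq names KIDINS220, a scaffold of neurotrophin receptors, fell from 358 and 489.8 to 0 and 0 (at least 95.8-fold lower, adjusted p = 6.8e-05), and the unnamed loci XLOC_014926 and XLOC_030176 fell from 567 and 909 to 0 and 4.59 and from 250.0 and 288 to 0 and 1.15. The plot of the largest rises and falls shows the single embryos.

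The 8C embryos were then read apart with 2 classes of loci that did not use the 4C or 8C embryos. A stored class was made of 989 loci whose lowest MII or 2C sample lay above the highest 16C, early morula, compact morula or blastocyst sample, with a mean log2 difference of at least 2 and a mean log2 level of at least 5 in MII and 2C. An embryonic class of 895 loci followed the reverse rule. The stored class took 35.6% and 44.1% of the reads of the 4C embryos, 4.30% of those of 8C embryo 1 and 10.1% of those of 8C embryo 2, and 4.40% and 5.26% at 16C. The share in 8C embryo 1 was thus just below both 16C embryos, and that in 8C embryo 2 lay above them. With MII alone in place of MII and 2C in the rule, the stored class took 11.1% and 15.7% in 8C embryos 1 and 2. The embryonic class took 3.24% and 3.66% of the reads at 4C, 41.5% and 37.0% in 8C embryos 1 and 2, and 39.8% and 36.9% at 16C, so that 8C embryo 1 lay just above the 16C embryos and 8C embryo 2 between them. No test of 1 embryo against another is possible with single embryos, and these shares are given as a description.

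Locus by locus, the median of the stored class lay at -3.65 against the 4C mean on the log2 scale in 8C embryo 1 and at -2.29 in 8C embryo 2, which is 7.95% and 20.4% of the 4C mean. With unread loci set at 3 reads these medians were -2.95 and -2.24, or 12.9% and 21.2%. Embryo 2 was the higher of the 8C embryos for 705 loci of the class and the lower for 240. No read was found for 274 loci in 8C embryo 1 and 73 in 8C embryo 2, which was also the more deeply read. At least 50% of the 4C mean was kept by 67 loci in 8C embryo 1 and 156 in 8C embryo 2. The embryonic class stood at 3.46 and 2.93, which is 11.02-fold and 7.63-fold the 4C mean (3.40 and 2.81 on the log2 scale with unread loci set at 3 reads). Within 2-fold of the 16C mean on the log2(normalised reads + 1) scale were 591 embryonic loci in 8C embryo 1 and 439 in 8C embryo 2, and 556 and 374 stored loci. In limma's test 722 stored loci fell and 0 rose, and 668 embryonic loci rose and 0 fell, where the background is 19.1% falls and 17.7% rises over all loci. The class rule picks loci that change over this window, and its samples also supply part of limma's spread. These counts are therefore no independent support for the classes. At an unadjusted p under 0.05 there were 0 stored loci higher and 0 embryonic loci lower, and by edgeR 0 and 0.

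**Figure D1:**
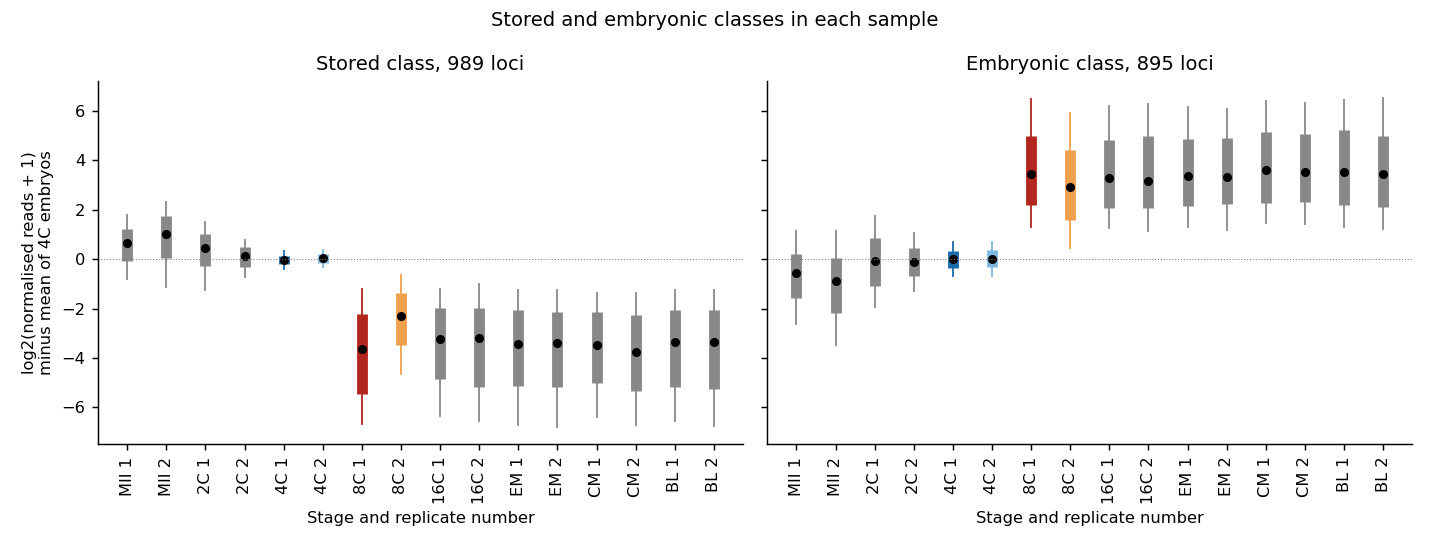
Log2(normalised reads + 1) minus the mean of the 4C embryos, for the stored class (left) and the embryonic class (right) in each of the 16 samples (dot, median; thick bar, middle 50% of loci; thin line, from the lower to the upper 10% limit). The median of the stored class is -3.65 in 8C embryo 1 and -2.29 in 8C embryo 2. Only the 8C and 4C values are independent of the class rule.

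Over the 9670 loci tested, the log2 levels of the 4C embryos correlated with r = 0.93 and those of the 8C embryos with r = 0.73, against 0.864 at 16C. 8C embryo 1 correlated with the 4C embryos at 0.37 and 0.38 and with the 16C embryos at 0.84 and 0.79. 8C embryo 2 stood nearer to 4C, at 0.53 and 0.53, and less near to 16C, at 0.71 and 0.65. These are correlations across loci, which are not independent, and the libraries differ in depth. The 8C embryos differed at least 4-fold on the log2(normalised reads + 1) scale at 1432 loci higher in embryo 2 and 1165 higher in embryo 1, against 288 and 245 between the 4C embryos. In the stored class these counts were 356 and 52 at 8C and 4 and 1 at 4C.

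Most genes tested of oocyte-secreted factors and the zona pellucida, the glycoprotein coat laid down by the growing oocyte, fell. Of 8 members tested, 7 fell and 1 rose (87.5% and 12.5%, against 19.1% and 17.7% of all loci). The median log2 difference from the 4C mean was -6.18 in 8C embryo 1 and -2.86 in 8C embryo 2 (-4.19 and -2.70 with unread genes set at 3 reads). ZP4 had 281 and 194 in the 4C embryos and 0 and 18.4 in the 8C embryos (log2 change -5.74 ± 1.02 (SE), adjusted p = 0.00079). KIT, the receptor of stem cell factor, fell from 192 and 110.5 to 0 and 4.59 (log2 change -5.95 ± 1.02 (SE), adjusted p = 0.00057). ASTL, the protease that cleaves ZP2 after fertilization, fell from 32.3 and 56.0 to 0 and 0 (at least 9.98-fold lower, adjusted p = 0.00015), and OOSP1, an oocyte-secreted protein, fell from 324 and 177 to 0 and 56.2 (log2 change -4.99 ± 1.25 (SE), adjusted p = 0.0067). OOSP1 kept reads in 8C embryo 2 and none in 8C embryo 1. The member that rose was CD9, a tetraspanin of gamete fusion that many cell types also express, from 6.46 and 3.25 to 169.4 and 10.3 (adjusted p = 0.04). Secreted and zona genes lower were 6 by edgeR, 4 and 6 without 4C embryo 1 or 2, and 4 and 7 without 8C embryo 1 or 2. OOSP1 and CD9 did not pass without 4C embryo 1 (adjusted p = 0.058 and 0.089), CD9 without 4C embryo 2 (adjusted p = 0.19), nor OOSP1 and CD9 without 8C embryo 1 (adjusted p = 0.069 and 0.49).

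The subcortical maternal complex is a protein lattice under the oocyte membrane that is needed for the first cleavages, and the list tested with it also holds other maternal-effect genes. Of 18 members tested, 11 fell, 0 rose by limma (1 at an unadjusted p under 0.05 and 1 by edgeR) and 7 did not pass, with a median log2 difference from the 4C mean of -4.41 in 8C embryo 1 and -1.98 in 8C embryo 2 (-2.01 and -1.53 with unread genes set at 3 reads). NLRP8, an NLR family gene of the oocyte, had 17546 and 18682 in the 4C embryos and 114 and 3122 in the 8C embryos, which left 0.627% of the 4C mean in 8C embryo 1 and 17.2% in 8C embryo 2 (log2 change -4.92 ± 1.15 (SE), adjusted p = 0.0045). NLRP14 fell from 249 and 145 to 0 and 2.29 (ratio 138, counting interval 38.0 to 1143, adjusted p = 2.6e-05) and NLRP9 from 144 and 175 to 0 and 3.44 (ratio 76.2, counting interval 25.9 to 371, adjusted p = 0.00012). NLRP8 was thus lower than at 4C in both 8C embryos, and higher in 8C embryo 2 than in 8C embryo 1. Reads of the closely related NLRP genes could be shared between copies, and how the counting treated them is not given in the sources used here. UHRF1, which brings the maintenance methyltransferase to replicating DNA, fell from 606 and 594 to 1.80 and 48.2 (log2 change -5.68 ± 1.05 (SE), adjusted p = 0.00098). The lattice genes OOEP and PADI6 fell from 24.0 and 21.9 to 0 and 1.15 and from 40.6 and 20.3 to 0 and 2.29, and NLRP5 fell from 60.0 and 33.3 to 1.80 and 17.2. KHDC3L, listed as C9H6orf221, had 49.8 and 57.7 in the 4C embryos and 0 and 74.6 in the 8C embryos and did not pass (adjusted p = 0.14). Members lower were 7 by edgeR, 8 and 7 without 4C embryo 1 or 2, and 6 and 12 without 8C embryo 1 or 2. NLRP5 did not pass without 4C embryo 1 (adjusted p = 0.21), nor NLRP5 without 4C embryo 2 (adjusted p = 0.094). NLRP8 and NLRP5 did not pass without 8C embryo 1 (adjusted p = 0.068 and 0.37), nor NLRP5 with edgeR on the recovered reads (adjusted p = 0.13).

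Among RNA-binding proteins that hold or translate stored mRNAs, 9 of 25 tested fell and 4 rose. These are 36% and 16%, against 19.1% and 17.7% of all loci, so the rises lie near the share of all loci. EIF4E1B, an oocyte form of the cap-binding protein, had 8843 and 9980.4 in the 4C embryos and 18.0 and 2859 in the 8C embryos (log2 change -5.33 ± 1.48 (SE), adjusted p = 0.012). It stood at 0.191% of the 4C mean in 8C embryo 1 and 30.4% in 8C embryo 2. CPEB1, which binds the cytoplasmic polyadenylation element, fell from 260.1 and 223 to 0 and 39.0 (adjusted p = 0.0067), and ZAR1, an oocyte RNA-binding protein of mRNA storage, fell from 183 and 197 to 0 and 58.5 (adjusted p = 0.036). Both were unread in 8C embryo 1 and kept reads in 8C embryo 2. Among the members that rose were CAPRIN1, a stress-granule protein, from 0 and 1.62 to 112 and 199.6 (ratio 191, counting interval 52.4 to 1590.4, adjusted p = 1.1e-05), and IGF2BP1, an mRNA-stabilising protein, from 0 and 0 to 90.1 and 39.0 (at least 24.8-fold higher, adjusted p = 3.6e-05). The repressor NANOS1 rose from 221 and 216 to 1155 and 1057. RNA-binding members lower were 4 by edgeR, 3 and 4 without 4C embryo 1 or 2, and 2 and 11 without 8C embryo 1 or 2. EIF4E1B and ZAR1 did not pass without 4C embryo 1 (adjusted p = 0.057 and 0.12), nor EIF4E1B and ZAR1 without 4C embryo 2 (adjusted p = 0.065 and 0.13). EIF4E1B, CPEB1 and ZAR1 did not pass without 8C embryo 1 (adjusted p = 0.16, 0.094 and 0.44), nor EIF4E1B and ZAR1 with edgeR on the recovered reads (adjusted p = 0.11 and 0.12).

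Genes of mRNA deadenylation and decay showed 4 rises and 5 falls among 28 tested (14.3% and 17.9%), near the 17.7% and 19.1% of all loci. BTG4, the adaptor that brings CCR4-NOT to maternal transcripts, had 771 and 983 in the 4C embryos and 5.40 and 162 in the 8C embryos (log2 change -4.75 ± 1.12 (SE), adjusted p = 0.0046). CNOT6L, a catalytic deadenylase of that complex, had 343 and 350.1 in the 4C embryos and 18.0 and 51.6 in the 8C embryos (log2 change -3.46 ± 0.73 (SE), adjusted p = 0.0023). Both adaptor and enzyme thus fell, and BTG4 stood at 0.616% of the 4C mean in 8C embryo 1 and 18.4% in 8C embryo 2. BTG1, a general relative of BTG4, rose from 3.69 and 13.8 to 66.7 and 74.6 (log2 change 3.10 ± 0.62 (SE), adjusted p = 0.0017), and the m6A reader YTHDF2, which sends mRNAs to decay, rose from 8.30 and 13.8 to 82.9 and 94.0 (adjusted p = 0.0021). The scaffold CNOT1 had 94.1 and 71.5 in the 4C embryos and 180.2 and 136 in the 8C embryos and the deadenylase CNOT7 202 and 209 in the 4C embryos and 276 and 304 in the 8C embryos, neither of which passed (adjusted p = 0.17 and 0.51). TOB1, a BTG relative with few reads, went from 10.1 and 8.12 to 0 and 0 (adjusted p = 0.02). Decay genes lower were 2 by edgeR, 2 and 2 without 4C embryo 1 or 2, and 2 and 4 without 8C embryo 1 or 2. TOB1 did not pass without 4C embryo 1 (adjusted p = 0.096), nor TOB1 without 4C embryo 2 (adjusted p = 0.074). BTG4 and TOB1 did not pass without 8C embryo 1 (adjusted p = 0.061 and 0.067), nor TOB1 with edgeR on the recovered reads (adjusted p = 0.059).

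Genes of meiotic arrest and mitotic entry showed 9 falls and 3 rises among 30 tested. These are 30% and 10%, against 19.1% and 17.7% of all loci, so the rises lie below the share of all loci. WEE2, the oocyte kinase that holds CDK1 inactive, was low in both 8C embryos, with 5686 and 6988 in the 4C embryos and 75.7 and 109 in the 8C embryos (log2 change -6.10 ± 0.73 (SE), adjusted p = 4e-05). The arrest genes MOS and FBXO43 fell from 13.8 and 21.9 to 0 and 3.44 and from 30.4 and 51.2 to 0 and 4.59, and PDE3A, which breaks down cAMP in the oocyte, fell from 20.3 and 42.2 to 0 and 2.29. CDC25B, a phosphatase that activates CDK1, fell from 63.6 and 73.1 to 0 and 17.2 (log2 change -4.02 ± 1.19 (SE), adjusted p = 0.016). The mitotic kinases PLK1, AURKA, TTK and MASTL also fell, AURKA from 377 and 365 to 50.4 and 204 and PLK1 from 63.6 and 34.9 to 0 and 14.9. The rises were in WEE1, from 0 and 0 to 14.4 and 4.59, in the centriole kinase PLK4, from 7.38 and 8.12 to 36.0 and 68.8, and in CDC20, an activator of the anaphase-promoting complex, from 57.2 and 55.2 to 193 and 132. CDK1 itself had 26.8 and 31.7 in the 4C embryos and 25.2 and 42.4 in the 8C embryos and did not pass (adjusted p = 0.89). In this list 5 by edgeR, 5 and 4 without 4C embryo 1 or 2, and 4 and 11 without 8C embryo 1 or 2 were lower. CDC25B, PLK1, AURKA, MASTL, PLK4 and CDC20 did not pass without 4C embryo 1 (adjusted p = 0.069, 0.092, 0.13, 0.081, 0.11 and 0.13), nor MOS, CDC25B, AURKA, TTK, MASTL, PLK4 and CDC20 without 4C embryo 2 (adjusted p = 0.097, 0.084, 0.13, 0.052, 0.12, 0.097 and 0.15). MOS, CDC25B, PLK1, AURKA, MASTL and CDC20 did not pass without 8C embryo 1 (adjusted p = 0.14, 0.22, 0.17, 0.36, 0.15 and 0.18), PLK4 without 8C embryo 2 (adjusted p = 0.12), nor MOS, CDC25B, PLK1, AURKA and CDC20 with edgeR on the recovered reads (adjusted p = 0.09, 0.062, 0.062, 0.12 and 0.054).

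In several protein families an oocyte or germ-cell form stands beside a general form, and 16 such pairs had both genes tested. Of the oocyte or germ-cell forms 10 fell, 1 rose and 5 did not pass, and of the general forms 1 fell, 4 rose and 11 did not pass. With the 4C and 8C samples alone, 4 oocyte or germ-cell forms fell and 0 rose. In that fit 1 general form rose and 0 fell. The median log2 change was -3.17 for the former (-3.03 with unread genes set at 3 reads) and 0.79 for the latter. For the oocyte or germ-cell forms it was -1.10 without 8C embryo 1, -4.03 without 8C embryo 2 and -1.89 by edgeR, and for the general forms 0.49 without 8C embryo 2. WEE2 fell while WEE1 rose, BTG4 fell while BTG1 rose, and among the enzymes that oxidise methylcytosine TET3 fell while TET1 rose. TET1, listed under its RefSeq gene number, had 15.7 and 2.44 in the 4C embryos and 2419.6 and 1348 in the 8C embryos (log2 change 7.90 ± 0.87 (SE), adjusted p = 2.2e-05). TET3 had 90.4 and 122 in the 4C embryos and 5.40 and 16.1 in the 8C embryos (log2 change -3.34 ± 0.77 (SE), adjusted p = 0.0041). BCL2L10, an oocyte survival factor, fell from 63.6 and 37.4 to 0 and 33.3 (adjusted p = 0.048) and its relative MCL1 rose from 23.1 and 51.2 to 171 and 107 (adjusted p = 0.013). The Y-box protein YBX2 fell from 203 and 133 to 23.4 and 11.5 (adjusted p = 0.0053), whereas YBX1 had 208 and 218 in the 4C embryos and 341 and 434 in the 8C embryos and did not pass (adjusted p = 0.41). BCL2L10, MCL1 and YBX2 did not pass without 4C embryo 1 (adjusted p = 0.2, 0.14 and 0.051), nor BCL2L10 without 4C embryo 2 (adjusted p = 0.11). BTG4, BCL2L10 and MCL1 did not pass without 8C embryo 1 (adjusted p = 0.061, 0.67 and 0.085), nor BCL2L10 with edgeR on the recovered reads (adjusted p = 0.26).

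The linker histone H1FOO fell from 3379 and 3197 to 30.6 and 1606 (log2 change -3.87 ± 1.15 (SE), adjusted p = 0.017), leaving 0.932% of the 4C mean in 8C embryo 1 and 48.8% in 8C embryo 2. SMC1B, the meiotic cohesin subunit, had no read in either 8C embryo, from 40.6 and 41.4 at 4C (at least 9.27-fold lower, adjusted p = 0.0011). REC8, another meiotic cohesin gene, was the germ-cell form that rose, from 33.2 and 20.3 to 103 and 108 (adjusted p = 0.043). KPNA7, the oocyte importin alpha, fell from 81.2 and 57.7 to 3.60 and 29.8 (adjusted p = 0.042), and KPNA2 had 134 and 115 in the 4C embryos and 115 and 179 in the 8C embryos without passing. PATL2, an oocyte mRNA storage protein, fell from 37.8 and 52.0 to 1.80 and 3.44 (adjusted p = 0.0097). NPM2, LSM14B, TAF4B, KDM1B and AURKC did not pass. NPM2, the histone chaperone of sperm chromatin, was unread in 8C embryo 1 and stood at 29.8 in 8C embryo 2, above the 4C values of 17.5 and 17.1. Oocyte or germ-cell forms lower were 6 by edgeR, 5 and 5 without 4C embryo 1 or 2, 4 without 8C embryo 1 and 12 without 8C embryo 2. H1FOO, REC8 and KPNA7 did not pass without 4C embryo 1 (adjusted p = 0.079, 0.084 and 0.18), nor H1FOO, REC8, KPNA7 and PATL2 without 4C embryo 2 (adjusted p = 0.075, 0.21, 0.11 and 0.067). H1FOO, REC8, KPNA7 and PATL2 did not pass without 8C embryo 1 (adjusted p = 0.26, 0.11, 0.38 and 0.054), REC8 without 8C embryo 2 (adjusted p = 0.1), nor H1FOO and KPNA7 with edgeR on the recovered reads (adjusted p = 0.15 and 0.12).

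**Figure D2:**
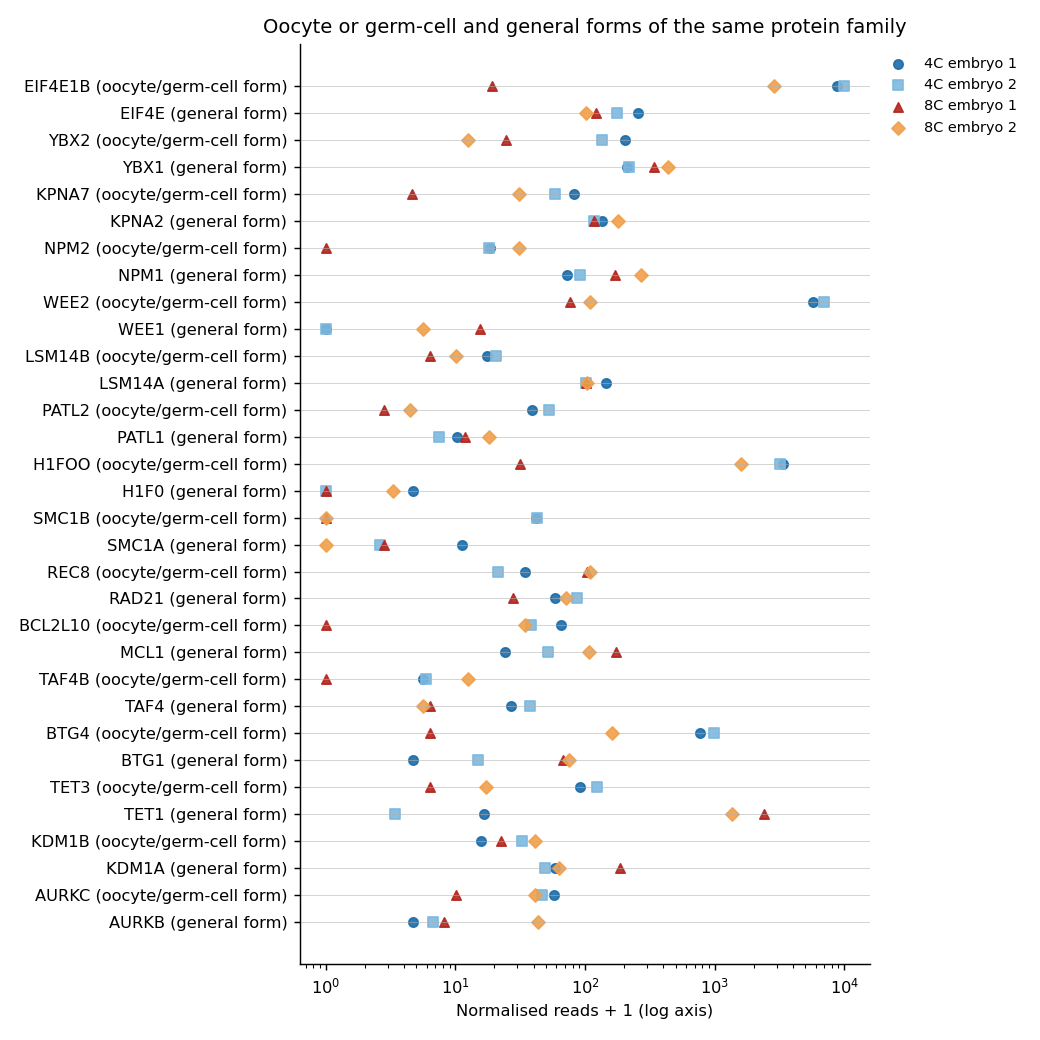
Normalised reads + 1 (log axis) of 16 pairs of an oocyte or germ-cell form and a general form of a protein family, with 1 marker per embryo. For EIF4E1B and H1FOO 8C embryo 2 lies nearer to the 4C embryos than 8C embryo 1 does, whereas WEE2 is low in both 8C embryos and TET1 high in both.

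Cytosolic ribosomal protein genes had the largest share of rises among the 36 gene lists. Of 80 tested, 73 rose, 1 fell and 6 did not pass, with a median log2 change of 4.11 and median log2 differences from the 4C mean of 3.92 in 8C embryo 1 and 4.54 in 8C embryo 2. Their summed normalised reads were 3653 and 5155 in the 4C embryos and 22553 and 31688 in the 8C embryos. RPL38 had 0 and 2.44 in the 4C embryos and 202 and 428 in the 8C embryos (ratio 262, counting interval 89.2 to 1277, adjusted p = 1.2e-05) and RPL8 1.84 and 0 in the 4C embryos and 141 and 348 in the 8C embryos (ratio 309, counting interval 85.0 to 2562, adjusted p = 8e-06). RPL14 had no read at 4C and 108 and 163 at 8C (at least 52.1-fold higher, adjusted p = 1.2e-05). RPS21 was the member that fell, from 1174 and 1720.2 to 329.7 and 253 (adjusted p = 0.0053). Ribosomal protein genes have many near-identical processed copies, so the split of their reads between loci is uncertain. The count of rises moved little when an embryo was left out, at 69 and 66 without 4C embryo 1 or 2, and 71 and 69 without 8C embryo 1 or 2. RPS21 did not pass without 4C embryo 2 (adjusted p = 0.056).

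Translation factors showed 24 rises and 4 falls among 49 tested (49% and 8.16%, against 17.7% and 19.1% of all loci). EEF1B2, an exchange factor of elongation, had 42.4 and 12.2 in the 4C embryos and 1131 and 669.8 in the 8C embryos (log2 change 5.19 ± 1.26 (SE), adjusted p = 0.0055). EIF3G and EIF2B5, subunits of initiation factors, rose from 0.922 and 0 to 95.5 and 88.3 and from 0.922 and 0 to 70.3 and 95.2 (adjusted p = 8.5e-05 and 6e-05). The falls were in EIF3A, from 8733 and 11052 to 3048 and 3857, EIF5B, from 1737 and 2219.8 to 303 and 370.5, EIF3M, from 624 and 711 to 72.1 and 153, and EIF4E3, from 19.4 and 11.4 to 0 and 2.29, so subunits of the same eIF3 complex moved in opposite directions. Of 20 tRNA synthetase genes 6 rose (30%) and 0 fell by limma (falls 0 at an unadjusted p under 0.05 and 0 by edgeR). Among the rises were SARS, from 0.922 and 0.812 to 64.9 and 72.3, and QARS, from 0.922 and 3.25 to 82.9 and 64.2. Of 68 mitochondrial ribosomal proteins 27 rose and 2 fell (39.7% and 2.94%). MRPL11 went from 0.922 and 3.25 to 66.7 and 48.2 (log2 change 4.33 ± 0.68 (SE), adjusted p = 0.00034). Of 78 genes of the nucleolus and ribosome assembly 20 rose and 5 fell (25.6% and 6.41%). NOP56, a core protein of the snoRNPs that methylate rRNA, rose from 2.77 and 8.12 to 1137 and 444 (log2 change 6.92 ± 0.71 (SE), adjusted p = 1.2e-05). Without 4C embryo 1 or 2 the rises were 18 and 14 for translation factors, 14 and 19 for mitochondrial ribosomal proteins and 15 and 12 for the nucleolus. EIF3A and EIF4E3 did not pass without 4C embryo 1 (adjusted p = 0.089 and 0.15), nor EEF1B2, EIF3A and EIF4E3 without 4C embryo 2 (adjusted p = 0.065, 0.17 and 0.075). EIF3A and EIF4E3 did not pass without 8C embryo 1 (adjusted p = 0.12 and 0.18), nor EIF3A and EIF4E3 with edgeR on the recovered reads (adjusted p = 0.093 and 0.089).

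Genes of the respiratory chain and ATP synthase rose in 45 of 68 cases and fell in 0 by limma (falls 1 at an unadjusted p under 0.05 and 0 by edgeR), with median log2 differences from the 4C mean of 2.94 in 8C embryo 1 and 2.71 in 8C embryo 2 (2.89 and 2.49 with unread genes set at 3 reads). UQCR10, a subunit of complex III, was unread at 4C and had 109.9 and 52.8 at 8C (at least 31.3-fold higher, adjusted p = 2.6e-05). ATP5E and ATP5J2 of the ATP synthase rose from 0 and 2.44 to 70.3 and 49.3 and from 0 and 0.812 to 32.4 and 68.8 (adjusted p = 0.0001 and 9.1e-05). Proteasome subunits showed 15 rises and 0 falls among 41 by limma (falls 1 at an unadjusted p under 0.05 and 0 by edgeR). PSMB4, of the catalytic core ring, rose from 0.922 and 2.44 to 59.5 and 39.0 (log2 change 4.26 ± 0.78 (SE), adjusted p = 0.00092). Among chaperonins and heat shock proteins 11 of 35 rose and 3 fell (31.4% and 8.57%, against 17.7% and 19.1% of all loci). CCT6A, a subunit of the cytosolic chaperonin, was unread at 4C and had 123 and 128 at 8C (at least 48.2-fold higher, adjusted p = 4.5e-06). HSPA1A, the inducible HSP70, went the other way, from 25.8 and 23.6 to 0 and 5.73 (adjusted p = 0.011). Proteasome rises were 8 and 11 without 4C embryo 1 or 2, and 13 and 13 without 8C embryo 1 or 2, and those of the chaperone list 6 and 5 without 4C embryo 1 or 2, and 10 and 8 without 8C embryo 1 or 2. Respiratory-chain rises were 32 and 37 without 4C embryo 1 or 2, and 32 and 41 without 8C embryo 1 or 2. HSPA1A did not pass without 4C embryo 1, without 4C embryo 2, without 8C embryo 1 or with edgeR on the recovered reads (adjusted p = 0.063, 0.057, 0.13 and 0.062).

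Splicing factors showed 30 rises and 1 fall among 76. SRSF3, an SR splicing factor, had 0.922 and 12.2 in the 4C embryos and 133 and 253 in the 8C embryos (log2 change 5.20 ± 0.82 (SE), adjusted p = 0.00035), and HNRNPH1 6.46 and 6.50 in the 4C embryos and 239.6 and 187 in the 8C embryos (log2 change 4.83 ± 0.63 (SE), adjusted p = 9e-05). RNA polymerase II and its general factors showed 12 rises and 7 falls among 54, where the background is 17.7% and 19.1%. SUPT4H1, an elongation factor subunit, was unread at 4C and had 90.1 and 136 at 8C (at least 43.5-fold higher, adjusted p = 1.5e-05), and TAF11 of TFIID rose from 15.7 and 30.9 to 391 and 197 (log2 change 3.60 ± 0.63 (SE), adjusted p = 0.00071). CDK7, the kinase of TFIIH, fell from 38.7 and 48.7 to 0 and 17.2 (adjusted p = 0.017). Of 23 Mediator subunits 5 rose and 2 fell (21.7% and 8.7%), with CCNC, the cyclin of the kinase module, at 0 and 0.812 in the 4C embryos and 91.9 and 195 in the 8C embryos (ratio 359, counting interval 63.7 to 14229, adjusted p = 9.1e-06). Of 40 nuclear pore and import genes 7 rose and 1 fell (17.5% and 2.5%), a share of rises near that of all loci. RAN, the GTPase of nuclear transport, had 1733 and 2576 in the 4C embryos and 30880 and 29240.2 in the 8C embryos (log2 change 3.83 ± 0.68 (SE), adjusted p = 0.00076), and the importin IPO7 rose from 8.30 and 10.6 to 490.0 and 214 (log2 change 4.97 ± 0.58 (SE), adjusted p = 3.1e-05). Rises of splicing factors were 17 and 16 without 4C embryo 1 or 2, and 21 and 22 without 8C embryo 1 or 2, and those of the polymerase II list 7 and 6 without 4C embryo 1 or 2, and 9 and 9 without 8C embryo 1 or 2. Falls in the latter were 2 by edgeR, 0 and 0 without 4C embryo 1 or 2, and 2 and 5 without 8C embryo 1 or 2. CDK7 did not pass without 4C embryo 1, without 4C embryo 2, without 8C embryo 1 or with edgeR on the recovered reads (adjusted p = 0.064, 0.091, 0.24 and 0.087).

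**Figure D3:**
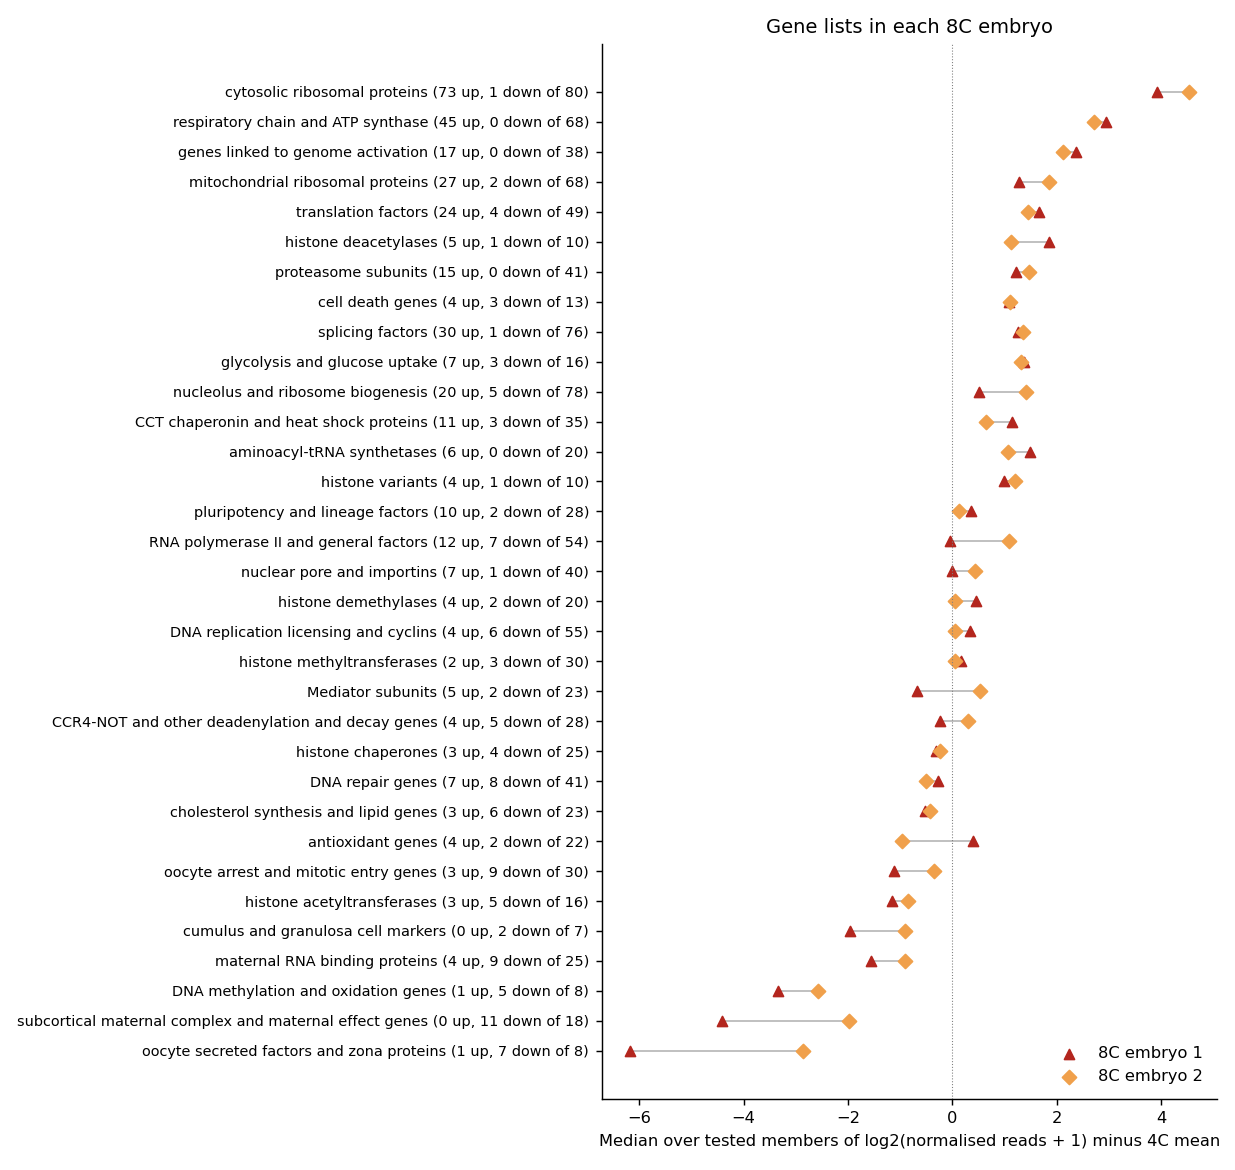
Median over the tested members of each gene list of log2(normalised reads + 1) minus the mean of the 4C embryos, in 8C embryo 1 (red triangle) and 8C embryo 2 (orange diamond), for the lists with at least 7 members tested. Cytosolic ribosomal proteins lie highest in both embryos, and the oocyte secreted and zona genes lie lowest, with 8C embryo 1 at -6.18 and 8C embryo 2 at -2.86.

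Genes linked to genome activation and the early lineage in mammals rose in 17 of 38 cases (44.7%, against 17.7% of all loci). By limma 0 fell (0 at an unadjusted p under 0.05 and 0 by edgeR). The paired-like homeobox genes ARGFX and DUXA had no read at 4C. ARGFX stood at 72.1 and 226 at 8C (at least 57.3-fold higher, adjusted p = 4e-05) and DUXA at 14.4 and 221 (at least 45.3-fold higher, adjusted p = 0.00098), both higher in 8C embryo 2. At 16C ARGFX had 31.6 and 6.47 and DUXA 6.53 and 4.85. The factors DPPA2, KLF4 and NFYA rose from 0 and 0 to 30.6 and 27.5, from 10.1 and 8.12 to 52.2 and 61.9 and from 3.69 and 4.87 to 45.0 and 33.3. ZSCAN4, a zinc finger gene of early cleavage in mouse, had 9.01 and 9.18 at 8C and no read at 4C (adjusted p = 0.011). YY1 had 27.7 and 20.3 in the 4C embryos and 166 and 305 in the 8C embryos without passing (adjusted p = 0.065). Rises in this list were 11 and 12 without 4C embryo 1 or 2, and 15 and 16 without 8C embryo 1 or 2. NFYA and ZSCAN4 did not pass without 4C embryo 1 (adjusted p = 0.055 and 0.059), nor KLF4 and ZSCAN4 without 4C embryo 2 (adjusted p = 0.07 and 0.06).

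Pluripotency and lineage factors showed 10 rises and 2 falls among 28 tested (35.7% and 7.14%, against 17.7% and 19.1% of all loci). POU5F1, which encodes OCT4, had 284 and 389.9 in the 4C embryos and 8628 and 3252 in the 8C embryos (adjusted p = 0.00017). NANOG was unread at 4C and stood at 7.21 and 84.9 at 8C (adjusted p = 0.0026). GATA6, a factor of the primitive endoderm, was unread at 4C and had 171 and 119 at 8C (at least 55.8-fold higher, adjusted p = 1.8e-05). TFAP2C, a trophectoderm factor, rose from 0.922 and 0 to 133 and 73.4 (ratio 224, counting interval 39.5 to 8909, adjusted p = 8.4e-06), and ZFP42, which encodes REX1, rose from 0 and 0.812 to 114 and 40.1 (ratio 159, counting interval 27.9 to 6345, adjusted p = 5.3e-05). Genes of later blastocyst lineages were at or near 0 in all 4 embryos, among them SOX17, EOMES, GATA4 and FGF4 at 0, and CDX2 with 1.80 in 8C embryo 1 alone. General genes such as TBP, PSMB1 and EIF4H were also listed at 0 in all 4, so a 0 does not show that a transcript was absent. TEAD4 and WWTR1, of the Hippo pathway that later separates the outer cells, rose from 0 and 0 to 12.6 and 11.5 and from 0 and 0 to 68.5 and 25.2. STAT3 fell from 294 and 227 to 106 and 32.1 (adjusted p = 0.018), and SALL4 had 4216 and 5715 in the 4C embryos and 4421 and 2820.3 in the 8C embryos without passing. The cadherin CDH1, the adhesion protein of compaction, rose from 24.9 and 33.3 to 796 and 239.7 (adjusted p = 0.00035). STAT3 did not pass without 4C embryo 1, without 4C embryo 2, without 8C embryo 2 or with edgeR on the recovered reads (adjusted p = 0.11, 0.061, 0.16 and 0.055).

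Histone variants and chromatin enzymes changed in part. Of 10 replication-independent histone genes 4 rose and 1 fell (40% and 10%, against 17.7% and 19.1% of all loci), the fall being H1FOO. H2AFZ, which encodes H2A.Z, had 0.922 and 10.6 in the 4C embryos and 97.3 and 205 in the 8C embryos (log2 change 4.92 ± 0.94 (SE), adjusted p = 0.0012). H3F3A, a gene of H3.3, had 25.8 and 25.99 in the 4C embryos and 97.3 and 158 in the 8C embryos (log2 change 2.22 ± 0.57 (SE), adjusted p = 0.0079). H2AFY and H2AFV also rose, from 7.38 and 5.69 to 21.6 and 50.5 and from 5.53 and 9.75 to 28.8 and 32.1. H3F3B, H2AFX and CENPA had log2 changes of 0.54 ± 0.50, 0.59 ± 0.60 and 0.91 ± 0.62 (SE) and did not pass. Among enzymes of DNA methylation, 5 of 8 fell and 1 rose (62.5% and 12.5%), the rise being TET1. TET2 fell from 135 and 162 to 1.80 and 3.44 (log2 change -5.40 ± 0.87 (SE), adjusted p = 0.00041), and the maintenance methyltransferase DNMT1 fell from 36.0 and 39.0 to 1.80 and 5.73 (log2 change -3.15 ± 0.80 (SE), adjusted p = 0.0071). The de novo enzyme DNMT3A had 36.0 and 30.1 in the 4C embryos and 12.6 and 1.15 in the 8C embryos and did not pass (adjusted p = 0.056). DNMT3B was listed at 0 in all 4 embryos. The study reports DNMT3B transcripts at these stages, so the lack of reads here does not show that the transcript was absent. H1FOO, H2AFY and H2AFV did not pass without 4C embryo 1 (adjusted p = 0.079, 0.083 and 0.11), nor H1FOO and H2AFY without 4C embryo 2 (adjusted p = 0.075 and 0.13). H1FOO and DNMT1 did not pass without 8C embryo 1 (adjusted p = 0.26 and 0.058), H2AFY without 8C embryo 2 (adjusted p = 0.15), nor H1FOO with edgeR on the recovered reads (adjusted p = 0.15).

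Histone demethylases showed 4 rises and 2 falls among 20 tested (20% and 10%, against 17.7% and 19.1% of all loci). KDM5B, which removes H3K4 methylation, had 0.922 and 3.25 in the 4C embryos and 171 and 174 in the 8C embryos (log2 change 5.93 ± 0.62 (SE), adjusted p = 1.4e-05). KDM2A, an H3K36 demethylase that binds CpG islands, had 29.5 and 45.5 in the 4C embryos and 665 and 343 in the 8C embryos (log2 change 3.67 ± 0.58 (SE), adjusted p = 0.00035), and the H3K27 demethylase KDM6A rose from 0.922 and 0 to 27.0 and 18.4 (ratio 50.3, counting interval 8.38 to 2050.3, adjusted p = 0.0029). KDM4C, an H3K9 demethylase, fell from 39.7 and 30.1 to 0 and 1.15 (ratio 49.3, counting interval 8.60 to 1971, adjusted p = 0.0013). Of 30 histone methyltransferases 2 rose and 3 fell beside 17.7% and 19.1% of all loci. SETD2, the H3K36 trimethylase, rose from 10.1 and 0.812 to 61.3 and 53.9 (adjusted p = 0.0039). SUV39H2, an H3K9 methyltransferase, went from 87.6 and 84.5 to 28.8 and 12.6 (adjusted p = 0.035), MLL5, which is also called KMT2E, from 57.2 and 75.5 to 27.0 and 5.73 (adjusted p = 0.035), and PRMT6, an arginine methyltransferase, from 8.30 and 21.1 to 0 and 4.59 (adjusted p = 0.032). EZH2, SETDB1 and SETD3 had log2 changes of 0.29 ± 0.77, 0.49 ± 0.65 and 0.02 ± 0.68 (SE) and did not pass. SETDB1 had 175 and 305 in the 4C embryos and 562 and 188 in the 8C embryos, so 8C embryo 1 lay above both 4C embryos and 8C embryo 2 between them. SUV39H2, MLL5 and PRMT6 did not pass without 4C embryo 1 (adjusted p = 0.13, 0.095 and 0.052), nor SETD2, SUV39H2, MLL5 and PRMT6 without 4C embryo 2 (adjusted p = 0.07, 0.12, 0.16 and 0.21). PRMT6 did not pass without 8C embryo 1 (adjusted p = 0.29), SUV39H2 and MLL5 without 8C embryo 2 (adjusted p = 0.18 and 0.27), nor SUV39H2, MLL5 and PRMT6 with edgeR on the recovered reads (adjusted p = 0.064, 0.076 and 0.15).

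Among histone acetyltransferases 3 of 16 rose and 5 fell (18.8% and 31.2%, against 17.7% and 19.1% of all loci). KAT5, the catalytic subunit of the TIP60 complex, had 7.38 and 4.87 in the 4C embryos and 504 and 389 in the 8C embryos (log2 change 5.98 ± 1.00 (SE), adjusted p = 0.0005), and KAT2B, also called PCAF, rose from 0 and 2.44 to 36.0 and 43.6 (ratio 31.4, counting interval 10.2 to 157, adjusted p = 0.0009). KAT6A, CLOCK and NCOA2 fell from 41.5 and 18.7 to 0 and 3.44, from 34.1 and 21.9 to 0 and 5.73 and from 73.8 and 114 to 3.60 and 40.1. HAT1, which acetylates new histone H4, rose from 4.61 and 9.75 to 36.0 and 109 (adjusted p = 0.0058). Of 10 deacetylases 5 rose and 1 fell (50% and 10%). HDAC1 had 50.7 and 33.3 in the 4C embryos and 268 and 204 in the 8C embryos (log2 change 2.48 ± 0.58 (SE), adjusted p = 0.0044), while HDAC2 and HDAC3 did not pass. HDAC4 rose from 0 and 0 to 3.60 and 70.0 (adjusted p = 0.019), almost wholly in 8C embryo 2. Among histone chaperones 3 of 25 rose and 4 fell (12% and 16%), no more than among all loci. The nucleosome assembly gene NAP1L1 rose from 85.8 and 76.3 to 398 and 440.4 (log2 change 2.36 ± 0.46 (SE), adjusted p = 0.0014) and ANP32E, the chaperone of H2A.Z, fell from 43.4 and 35.7 to 3.60 and 6.88 (log2 change -2.74 ± 0.65 (SE), adjusted p = 0.0049). KAT6A, CLOCK, NCOA2, HAT1 and HDAC4 did not pass without 4C embryo 1 (adjusted p = 0.088, 0.12, 0.058, 0.061 and 0.081), nor CLOCK, NCOA2 and HDAC4 without 4C embryo 2 (adjusted p = 0.067, 0.12 and 0.083). KAT6A, CLOCK and NCOA2 did not pass without 8C embryo 1 (adjusted p = 0.098, 0.2 and 0.26), HDAC4 without 8C embryo 2 (adjusted p = 0.19), nor CLOCK and NCOA2 with edgeR on the recovered reads (adjusted p = 0.083 and 0.069).

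In glycolysis and glucose uptake 7 of 16 genes rose and 3 fell (43.8% and 18.8%, against 17.7% and 19.1% of all loci). The glucose transporter SLC2A3 had 0.922 and 4.87 in the 4C embryos and 133 and 216 in the 8C embryos (log2 change 5.67 ± 0.84 (SE), adjusted p = 0.00021), and SLC2A4 fell from 23.1 and 10.6 to 0 and 0 (at least 3.8-fold lower, adjusted p = 0.0015). LDHA, which makes lactate from pyruvate, fell from 76.6 and 88.5 to 12.6 and 4.59, whereas PDHB, of the pyruvate dehydrogenase complex, rose from 4.61 and 1.62 to 137 and 60.8. In cholesterol and lipid synthesis 3 of 23 rose and 6 fell (13% and 26.1%). INSIG1, a sterol-sensing regulator of the endoplasmic reticulum, fell from 63.6 and 47.9 to 0 and 4.59 (log2 change -4.57 ± 1.08 (SE), adjusted p = 0.0046). Of 22 antioxidant genes 4 rose and 2 fell (18.2% and 9.09%, the rises near the share of all loci), the glutathione synthesis gene GCLC from 151 and 186 to 27.0 and 16.1 (log2 change -2.95 ± 0.60 (SE), adjusted p = 0.0018) and the lipid peroxidase GPX4 from 3.69 and 7.31 to 50.4 and 32.1 (log2 change 2.73 ± 0.64 (SE), adjusted p = 0.0044). Of 13 cell death genes 4 rose and 3 fell (30.8% and 23.1%). BAD, a pro-apoptotic BCL2 relative, rose from 0 and 1.62 to 52.2 and 42.4 (ratio 53.6, counting interval 14.2 to 451, adjusted p = 0.00079). MDM2, the ligase that degrades p53, fell from 69.2 and 95.0 to 3.60 and 1.15 (ratio 39.4, counting interval 13.3 to 193, adjusted p = 0.003). LDHA did not pass without 4C embryo 1 (adjusted p = 0.067), nor LDHA without 4C embryo 2 (adjusted p = 0.085). INSIG1 did not pass without 8C embryo 1 (adjusted p = 0.054), nor LDHA without 8C embryo 2 (adjusted p = 0.084).

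In DNA repair 7 of 41 genes rose and 8 fell (17.1% and 19.5%), near the 17.7% and 19.1% of all loci. FANCI, a Fanconi protein that binds damaged DNA, rose from 82.1 and 116 to 971 and 602 (log2 change 2.96 ± 0.57 (SE), adjusted p = 0.0013), and the base excision nuclease APEX1 rose from 36.0 and 17.1 to 162 and 118 (adjusted p = 0.0056). RAD51C and PALB2, of homologous recombination, fell from 289 and 220.1 to 1.80 and 40.1 and from 51.7 and 30.1 to 1.80 and 3.44 (adjusted p = 0.0021 and 0.0011). FANCL of the Fanconi pathway fell from 179.9 and 264 to 16.2 and 4.59 (log2 change -4.48 ± 0.67 (SE), adjusted p = 0.00023). ERCC3, a helicase of TFIIH, fell from 98.7 and 99.1 to 14.4 and 4.59 (log2 change -3.43 ± 0.64 (SE), adjusted p = 0.0011). In replication licensing and cyclins 4 of 55 rose and 6 fell (7.27% and 10.9%), below the shares of all loci in both directions. The licensing factor CDC6 had 273 and 278 in the 4C embryos and 9.01 and 27.5 in the 8C embryos (log2 change -4.03 ± 0.75 (SE), adjusted p = 0.00099), and the origin recognition genes ORC2 and ORC5 fell from 27.7 and 51.2 to 3.60 and 0 and from 84.9 and 43.0 to 12.6 and 2.29. DBF4, the activator of the CDC7 kinase that fires origins, rose from 0 and 8.12 to 135 and 50.5 (log2 change 4.79 ± 0.88 (SE), adjusted p = 0.00093). ORC5 did not pass without 4C embryo 1 (adjusted p = 0.075), APEX1 without 4C embryo 2 (adjusted p = 0.073), nor ORC5 without 8C embryo 2 (adjusted p = 0.058).

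The genes that differed most between the 8C embryos were taken by their ratio, so their values are a description without a test. All 8 genes with the largest ratio of 8C embryo 2 to 8C embryo 1 had reads in both 4C embryos. LRRC8B, a subunit of volume-regulated anion channels, had 1124 and 1802 in the 4C embryos and 1.80 and 375 in the 8C embryos. GJC1, a gap junction connexin, had 601 and 808 in the 4C embryos and 0 and 101 in the 8C embryos, and the nicotinic receptor gene CHRNA5 418 and 416 in the 4C embryos and 0 and 95.2 in the 8C embryos. In these genes 8C embryo 2 lay between the 4C level and that of 8C embryo 1, as did EIF4E1B and CYBRD1. CHTF8, of the clamp-loading complex of sister chromatid cohesion, differed from them, with 208 and 196 in the 4C embryos and 1.80 and 742 in the 8C embryos, as did AMICA1, a junctional adhesion gene, with 37.8 and 31.7 in the 4C embryos and 0 and 103 in the 8C embryos. These 2 genes stood above both 4C embryos in 8C embryo 2. MYH2, a myosin heavy chain gene, had 268 and 176 in the 4C embryos and 0 and 162 in the 8C embryos, with 8C embryo 2 just below the 4C values.

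Of the 8 genes with the smallest ratio, 6 had at most 12.9 normalised reads in each 4C embryo. GJB5, a connexin of the trophoblast, had 7.38 and 3.25 in the 4C embryos and 3774 and 12.6 in the 8C embryos and 1851 and 700.2 at 16C. GPR171, a G protein-coupled receptor, had 7.38 and 0.812 in the 4C embryos and 573 and 0 in the 8C embryos and 396 and 254 at 16C. The glutamate transporter gene SLC1A3 had 0 and 0.812 in the 4C embryos and 232 and 0 in the 8C embryos, and fibronectin, FN1, 12.9 and 6.50 in the 4C embryos and 166 and 0 in the 8C embryos. NKIRAS1, an inhibitor of NF-kB signalling, had 1.84 and 0 in the 4C embryos and 329.7 and 0 in the 8C embryos, and the collagen gene COL24A1 2.77 and 6.50 in the 4C embryos and 149.5 and 0 in the 8C embryos. In these 6 genes only 8C embryo 1 stood far above the 4C level. For GPR171, FN1 and COL24A1 8C embryo 2, at 0, lay below both 4C embryos. Without 8C embryo 1 the log2 change of FN1 was -3.35. MOSPD2 and DIP2B were of another kind, with reads in both 4C embryos and 8C embryo 1 and none in 8C embryo 2. MOSPD2 had 149 and 241 in the 4C embryos and 166 and 0 in the 8C embryos and DIP2B 47.0 and 47.9 in the 4C embryos and 141 and 0 in the 8C embryos. GJB5 did not pass without 4C embryo 1, without 4C embryo 2 or without 8C embryo 1 (adjusted p = 0.064, 0.12 and 0.37).

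**Figure D4:**
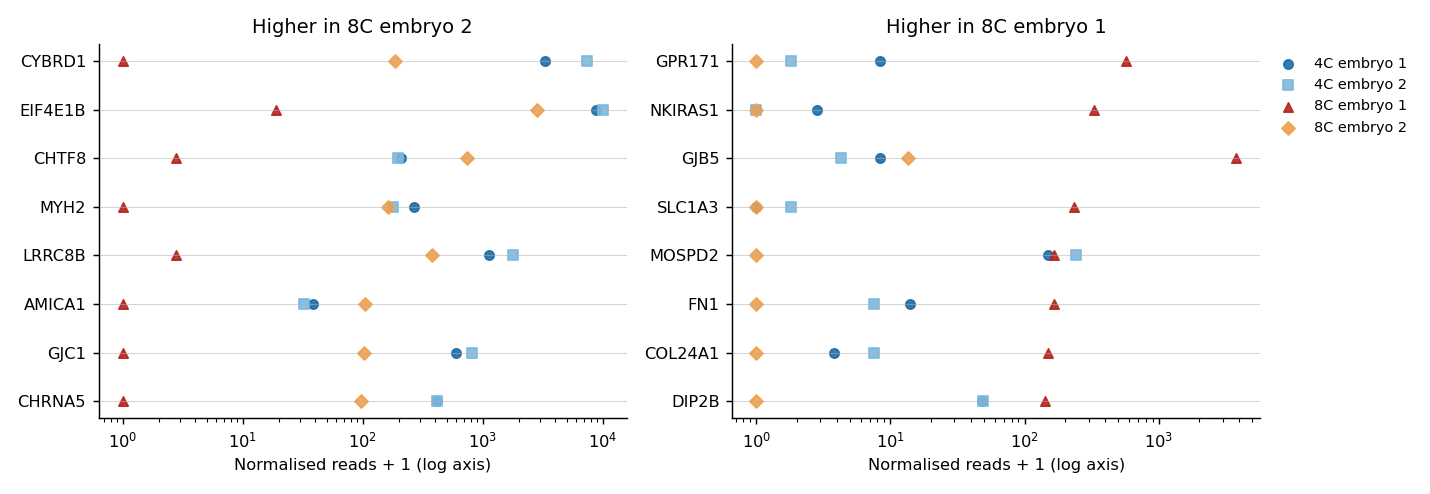
Normalised reads + 1 (log axis) of the 8 named genes with the largest ratio of 8C embryo 2 to 8C embryo 1 (left) and the 8 with the smallest (right), with 1 marker per embryo. On the left 8C embryo 1 is at or below 18.0 normalised reads in every gene, and on the right 8C embryo 2 is at or below 12.6.

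Markers of other cell types were checked in the same embryos. Of 18 cumulus and granulosa markers 7 were tested, of which 2 fell and 0 rose by limma (rises 0 at an unadjusted p under 0.05 and 0 by edgeR), and their summed normalised reads were 2429.7 and 2658 in the 4C embryos and 560.3 and 1055 in the 8C embryos. The larger part of this sum was STAR, the cholesterol carrier of steroid synthesis, with 2028 and 2282 in the 4C embryos and 551 and 1004 in the 8C embryos (log2 change -1.53 ± 0.54 (SE), adjusted p = 0.038). HAS2, a hyaluronan synthase, had 342 and 309 in the 4C embryos and 0 and 21.8 in the 8C embryos (log2 change -6.09 ± 1.31 (SE), adjusted p = 0.0027). Of the defining markers, CYP11A1, AMH, INHBA, INHA, FOXL2 and NR5A1 were at 0 in all 4 embryos. The aromatase CYP19A1 was read, with 32.3 and 30.1 in the 4C embryos and 1.80 and 16.1 in the 8C embryos, and did not pass (adjusted p = 0.079). FSHR had 6.46 and 3.25 in the 4C embryos and 0 and 0 in the 8C embryos, and PTGS2 3.69 and 12.2 in the 4C embryos and 0 and 0 in the 8C embryos. The part of cumulus or granulosa RNA in the falls was not tested. Of 11 sperm and testis markers only LDHC passed the filter, with 24.9 and 27.6 in the 4C embryos and 5.40 and 1.15 in the 8C embryos (adjusted p = 0.031), and PRM1, PRM2, TNP1, ODF1 and AKAP4 were at 0. Oviduct, blood and stromal markers summed to 4.61 and 9.75 in the 4C embryos and 25.2 and 13.8 in the 8C embryos, with HBA, HBB, COL1A1 and MUC1 at 0. The X-linked XIST had 5.53 and 4.87 in the 4C embryos and 23.4 and 63.1 in the 8C embryos (adjusted p = 0.12), and the Y-linked DDX3Y, EIF1AY, ZFY, UTY, EIF2S3Y and ZRSR2Y were at 0 in all 4. USP9Y had 0 and 0.812 in the 4C embryos and 5.40 and 0 in the 8C embryos. STAR and LDHC did not pass without 4C embryo 1 (adjusted p = 0.11 and 0.11), nor STAR and LDHC without 4C embryo 2 (adjusted p = 0.16 and 0.13). STAR did not pass without 8C embryo 1 (adjusted p = 0.22), LDHC without 8C embryo 2 (adjusted p = 0.16), nor STAR and LDHC with edgeR on the recovered reads (adjusted p = 0.11 and 0.064).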

How the data were processed

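RNA of single oocytes and embryos was amplified over 2 rounds and sequenced on the SOLiD platform. The authors deposited 1 table of signal values per locus, which are read counts divided by a size factor of each library, and 100% of nonzero values came out as whole reads (within 0.02 reads) once that factor was removed. The submitters' processing notes name TopHat, Cufflinks, HTSeq, cutadapt and FastQC without versions, and the genome build and the treatment of reads shared by near-identical loci are not given in the sources used here.

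Values were set to log2(value + 1) and loci with few reads were removed with filterByExpr. limma 3.58.1 (trend, Benjamini-Hochberg adjusted p under 0.05) was fitted to all 16 samples of the 8 stages with the contrast 8C minus 4C, in R 4.3.3. edgeR 4.0.16 (quasi-likelihood, TMM) and DESeq2 1.42.0 on the recovered reads, other scalings and pseudocounts, no filter, the 4C and 8C samples alone, a replicate block and leaving out each embryo were alternatives. Pairing by replicate number was checked and the numbers did not pair the embryos. Nothing says that the embryos of a stage had different parents, so the p-values may not cover the spread between parents. They rest on the spread between embryos of a stage, pooled over all 8 stages and moderated over loci. The 8C embryos differed more than the 4C embryos (median absolute log2 difference 1.10 against 0.498 over all loci tested). The models and scripts were tested on simulated data.

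Genes named in the text were the 12 largest rises and falls with a symbol and the 3 without, among loci called without overlap and with at least 30 reads in each embryo of the higher stage. To these were added up to 4 called members of each of 36 gene lists with the largest change, the genes of the protein family pairs, the 8 genes furthest apart in each direction between the 8C embryos, and genes the study names. Further list members, among them POU5F1, NANOG, CDH1 and RPS21, were named after their values were seen. Some genes that met these rules are not reported here. The lists held 1364 genes, of which 1288 were found by name, 33 by a RefSeq synonym or gene ID and 43 not. Members and lists were chosen with earlier results of these data known.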

Additional observations from a re-analysis of the deposited data

How the results depend on the processing

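Of the 204 named genes that passed, 104 passed with the same direction in all 13 alternatives. The largest loss was with the 4C and 8C samples alone, where 90 of them did not pass. With edgeR on the recovered reads 29 did not pass. The total of loci changed lay between 1993 and 3707 when 1 embryo was left out, with 1059 to 1755 higher and 934 to 1952 lower, the lone embryo of a stage being assumed to vary like the other stages. With the 4C and 8C samples alone 1297 loci changed, 680 higher and 617 lower, in a fit with fewer samples. Loci lower were 1083 with edgeR and 1154 with DESeq2, and the cause was not tested. The other pseudocounts, no filter, TMM and total-read scaling gave totals within 1.5 times the one reported. A replicate block gave 1688 higher and 1827 lower, and same-numbered embryos of the 2 stages did not deviate together (r = -0.016 over 9670 loci).

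With a mean log2 difference of at least 4 in the class rule, the stored class (449 loci) stood at -5.36 and -2.98, with 0.546% and 4.33% of reads, and the embryonic class (447 loci) at 4.85 and 4.14 in 8C embryos 1 and 2. With MII alone in place of MII and 2C, the stored class (1276 loci) stood at -3.06 and -2.10, with 11.1% and 15.7% of reads, and the embryonic class (1090 loci) stood at 2.98 and 2.41.

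Some genes that had not passed changed sign. When 1 embryo was left out, the log2 change ran from -0.11 to 0.52 for KPNA2, from -4.19 to 0.75 for NPM2, from -1.37 to 0.86 for H1F0, from -2.52 to 1.12 for TAF4B, from -0.10 to 0.95 for KDM1B, from -1.96 to 7.20 for GPR171, from -0.75 to 7.62 for NKIRAS1, from -0.43 to 7.44 for SLC1A3, from -3.35 to 4.03 for FN1, from -2.41 to 4.82 for COL24A1, from -5.60 to 1.55 for DIP2B, from -6.18 to 1.88 for CHTF8, from -5.15 to 1.55 for AMICA1, from -0.21 to 0.80 for EZH2, from -0.30 to 1.28 for SETDB1, from -0.14 to 0.18 for SETD3, from -0.20 to 0.53 for CDK1 and from -5.77 to 0.47 for C9H6orf221. The log2 change was 0.46 for TAF4B, 0.64 for DIP2B, 0.99 for CHTF8 and 0.69 for AMICA1 by edgeR. The log2 change was 0.34 for TAF4B, 0.56 for DIP2B, 0.88 for CHTF8 and 0.58 for AMICA1 by DESeq2. The log2 change was -0.088 for FN1 with pseudocount 0.5. Promoter motifs were not run, since promoter sequences were not used here. Depth limits what a 0 means, most of all in 8C embryo 1, which had the fewest reads. It is not the only limit, since TBP, PSMB1, PSMD13, EIF4H, HDAC8 and DNMT3B were at 0 in all 4C, 8C and 16C embryos. The study reports HDAC8 and DNMT3B transcripts at these stages. Why such loci hold no reads was not tested.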
